A study of Mus musculus with 13 samples.

Results

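The muscle atrophy ubiquitin ligases and the FoxO transcription factors above them were compared between 3 skeletal muscles of mdm mice. The 9 genes, of 17924 in the tables, were chosen by symbol: the ligases Trim63 (MuRF1), Trim55 (MuRF2), Trim54 (MuRF3), Trim32, Fbxo32 (MAFbx or atrogin-1) and Fbxo30 (MUSA1), and the factors Foxo1, Foxo3 and Foxo4. All 9 were in every library and passed the filter on low counts, so every member is accounted for below. Total RNA was sequenced from 13 libraries, 5 of the extensor digitorum longus (EDL), 5 of psoas and 3 of soleus. Every library came from the genotype mdm, in which a rearrangement deletes titin sequence at the border of the N2A and PEVK regions, and no treatment is given. The EDL mice were 38, 38, 42, 38 and 38 days old in the order of the replicate numbers, the psoas mice 29, 38, 42, 38 and 38 days, and the soleus mice 33, 36 and 38 days. The labels also carry a code, T1, T3, T4, T5 or T6, which they do not explain. Sex is given for 6 of the 13 libraries, male for every library of code T4 and female for every library of code T5. Whole muscles were taken, so the RNA holds that of vessels, nerve, fat, tendon and immune cells beside fibers, and fewer cells of a type and less RNA per cell cannot be told apart. No value below measures the effect of the mutation, since wild-type muscles are not analysed here.

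Proteins of a fiber that is losing mass are tagged with ubiquitin by E3 ligases and degraded by the proteasome. Trim63 and Fbxo32 are the classic markers of this state, since their RNAs rise in muscle after denervation, fasting, disuse and glucocorticoids. FoxO factors activate both genes. Akt, activated by insulin and IGF1, phosphorylates FoxO proteins and holds them in the cytoplasm, so that an RNA level of a FoxO gene does not show how active its protein is. The MuRF proteins bind sarcomere proteins, and MuRF1 and MuRF2 bind titin near its kinase domain at the M band, far along the molecule from the mdm deletion.

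Trim63 is the best known gene of the MuRF family and Trim54 the member that passed the test below, so the 250 bases before their start sites in RefSeq (GRCm38.p6, forward strand for both) are shown here. Capitals mark letters that match GTAAACA or AAACAA, which FoxO proteins recognize, or the E box CANNTG of muscle bHLH factors such as MyoD, on either strand.

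Trim63, chr4:134314870-134315119: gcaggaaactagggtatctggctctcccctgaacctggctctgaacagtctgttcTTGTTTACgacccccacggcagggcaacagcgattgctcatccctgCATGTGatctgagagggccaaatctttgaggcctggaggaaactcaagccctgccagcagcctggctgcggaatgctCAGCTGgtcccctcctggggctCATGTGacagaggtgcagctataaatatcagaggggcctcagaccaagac

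Trim54, chr5:31116362-31116611: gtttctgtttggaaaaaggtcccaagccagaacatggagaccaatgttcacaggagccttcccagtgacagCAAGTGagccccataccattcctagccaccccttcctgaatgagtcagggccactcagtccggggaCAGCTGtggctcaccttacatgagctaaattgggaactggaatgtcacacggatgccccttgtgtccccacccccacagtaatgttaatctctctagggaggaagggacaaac

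Counted from the start site, the Trim63 window held GTAAACA on the opposite strand at -194 to -188, overlapping AAACAA at -195 to -190. It also held E boxes beginning at -149, -72 and -50. The Trim54 window, whose RefSeq start lies upstream of the GENCODE gene start, held E boxes beginning at -179 and -113 and neither FoxO motif. Among 27025 mouse promoter windows of the same length, 3.09% held GTAAACA, 18.6% AAACAA and 66.0% an E box, so an E box is common in a window of this size. The palindrome of the glucocorticoid receptor, AGAACA and TGTTCT with 3 free letters between them, was in neither window. Its inner part, GAACA and TGTTC with the same gap, searched for after the sequence had been seen, stood in the Trim63 window at -208 to -196, next to the FoxO motif, and in 0.0296% of all windows. Windows were found for 6 of the 9 members (not for Trim55, Fbxo32 and Foxo4). Trim32 and Foxo1 held 1 E box each, while Fbxo30 and Foxo3 held no match to any of these motifs. By the GENCODE starts, however, the Fbxo30 window lay inside the gene and the Foxo3 window overlapped its gene, so neither was wholly upstream.

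The libraries held between 9114176 and 48835209 counted reads. In edgeR's quasi-likelihood test of 17069 genes, with Benjamini-Hochberg adjustment and the limits of an adjusted p under 0.01 and over 2-fold change, 1 of the 9 members differed between psoas and EDL, against 4.93% of all genes. The gene was Trim54, lower in psoas, as were 2.5% of all genes. None of the 9 passed for soleus against EDL, where 0.978% of all genes did and 2 members had an unadjusted p under 0.05 (15.1% of all genes). None passed for soleus against psoas, where 0.0762% of all genes did and 2 members were under that unadjusted limit (12.7% of all genes). For psoas against EDL 3 members were under it (33.3% of all genes). DESeq2 gave the same counts of members past both limits, and 3, 3 and 2 members at an unadjusted p under 0.05 for psoas against EDL, soleus against EDL and soleus against psoas. The median log2 fold change of the members was 0.17, -0.09 and -0.26 in the 3 comparisons, beside 0.02, -0.03 and -0.03 over all genes tested.

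**Figure D1:**
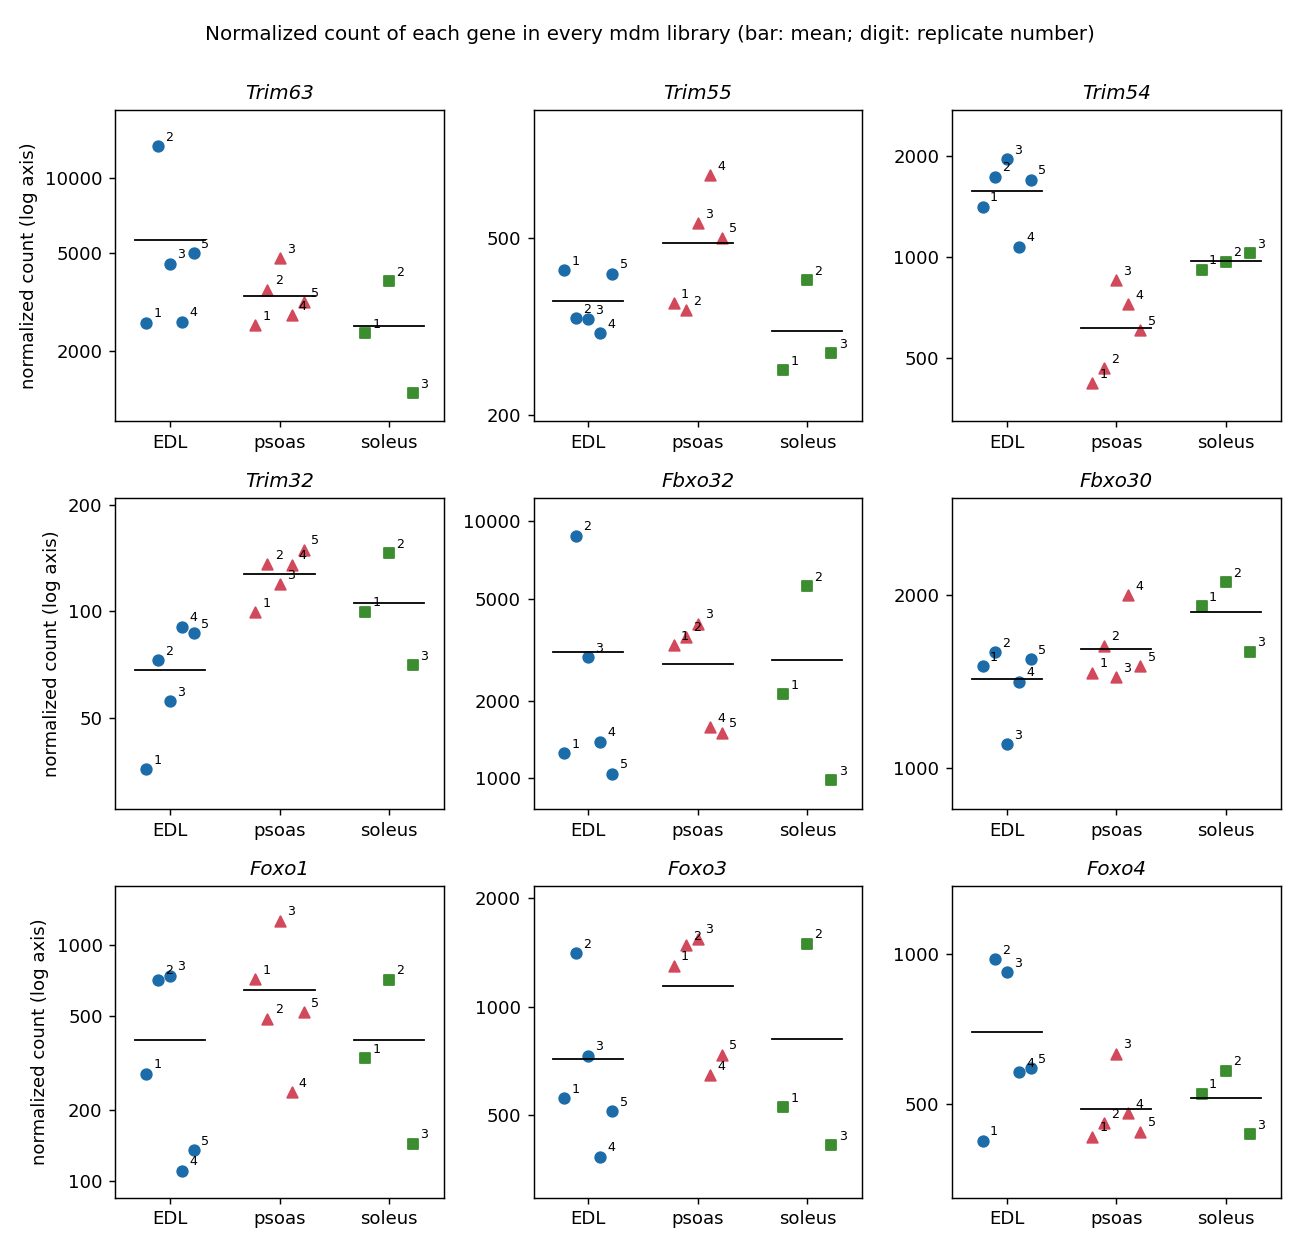
Normalized count (read count divided by the size factor of the library, log axis) of the 9 genes in every mdm library, grouped by muscle, with a bar at the mean and a digit for the replicate number. Trim54 has the 5 psoas libraries, at most 854, below the 5 EDL libraries, at least 1074, while Trim63, Fbxo32, Foxo1 and Foxo3 are spread widely within each muscle.

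Trim54 (ENSMUSG00000062077, chr5:31116712-31137630 in GENCODE on GRCm38), whose protein MuRF3 associates with microtubules and the sarcomere, was lower in psoas than in EDL. Its normalized counts were 1414, 1737, 1959, 1074 and 1701 in EDL and 423, 468, 854, 726 and 608 in psoas, and the groups did not overlap. The means were 1577 ± 342 (SD, n = 5) and 616 ± 179 (SD, n = 5). Psoas was 2.57-fold lower, a log2 fold change of -1.36 ± 0.22 (SE, adjusted p = 0.00225 in edgeR's quasi-likelihood test). The call was made without any of the 13 libraries in turn and in the 9 other fits of all genes, with adjusted p from 3.4e-07 to 0.00738. Because the groups did not overlap, psoas had to lie below EDL in every pair of the same replicate number and within every shared code. These signs therefore add no support. In size, the log2 differences within codes were -1.92 in T4 and -1.21 in T5, with 1 library of each muscle in both, and -1.01 in T6. Libraries also differed in the level of genes with long exons relative to genes with short exons, a measure defined with the correlations below, which ran from -0.60 to 0.10 in EDL and from -0.03 to 0.46 in psoas. Trim54, whose exons span 1436 bases, had r = -0.616 with it over the 13 libraries and -0.0598 with the muscle means removed, and its part in the difference was not tested. The authors also list an RNA integrity number, a measure of RNA quality, for each library. In that number no psoas library exceeded the lowest EDL library, and the part of RNA quality in the difference of Trim54 was not tested.

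Soleus stood between the other muscles for Trim54, with normalized counts of 917, 970 and 1028 (972 ± 55.4, SD, n = 3), below every EDL library and above every psoas library. The log2 fold change was -0.70 ± 0.26 against EDL (adjusted p = 0.193) and 0.67 ± 0.25 against psoas (adjusted p = 0.290, both edgeR), so neither passed. Muscle accounted for 79.1% of the variance of Trim54 over the libraries, against a median of 27.6% over all genes. Non-overlap of the libraries held for 2 members between psoas and EDL (Trim54 and Trim32, 13% of all genes), for 2 between soleus and EDL (Trim54 and Fbxo30, 11%) and for 1 between soleus and psoas (Trim54, 10.2%).

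Fiber RNA moved with the difference of Trim54. Of 8 genes of the skeletal muscle fiber (Acta1, Ckm, Des, Mb, Myot, Neb, Ryr1 and Ttn), Ckm fell between EDL and psoas, and the median log2 fold change of the 8 was -0.89. Their summed normalized count ran from 1316370 to 2574600 in EDL and from 909953 to 1776230 in psoas. Set against the mean log2 CPM of these 8 genes in the same library, a scale chosen after the data were seen, Trim54 had a log2 difference of -0.71 between psoas and EDL. A two-sided exact permutation test gave p = 0.00794, the smallest that 5 against 5 libraries can reach, and an adjusted p of 0.0714 over 27 such tests. On the same scale, soleus differed from EDL by -0.04 and from psoas by 0.67 (exact permutation test, two-sided, p = 0.0357, adjusted p = 0.107). This scale also moved the other members upward in psoas against EDL. Trim55 was at 1.06 and Trim32 at 1.62, each with the same p and adjusted p as Trim54, and Fbxo30 was at 0.84, Foxo1 at 1.58 and Foxo3 at 1.396 (adjusted p = 0.107 for each in the exact permutation test). For soleus against EDL, Trim32 was at 1.26 and Fbxo30 at 1.02 (adjusted p = 0.107 for both in the exact permutation test). None of the 27 tests passed after adjustment, and with so few libraries none could have reached an adjusted p under 0.01.

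Markers of some other cells moved too. Of 5 Schwann cell genes 3 rose in psoas, of 5 mesothelial genes 5 rose, and of 5 tendon genes 3 fell. For psoas against EDL 0 of 6 macrophage, 6 fibroblast, 5 endothelial, 5 adipocyte and 4 measured satellite cell genes passed. The Schwann cell sum ran from 523 to 1400 normalized counts in EDL and from 2440 to 20959 in psoas. The mesothelial sum ran from 28.4 to 99.2 in EDL, where Bnc1 was at 0 in every library, and from 198 to 1015 in psoas, and the tendon sum from 12325 to 18839 in EDL and from 6836 to 15390 in psoas. Of 8 fast fiber genes 4 fell in psoas, among them Myh4 (log2 fold change -4.18 ± 0.69, adjusted p = 0.00223 in edgeR's test), and 0 of 6 slow fiber genes passed. The slow fiber sum ran from 294262 to 373557 in soleus and did not exceed 61650 elsewhere, as the muscle labels say. The part of these cells in the difference of Trim54 was not tested.

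**Figure D2:**
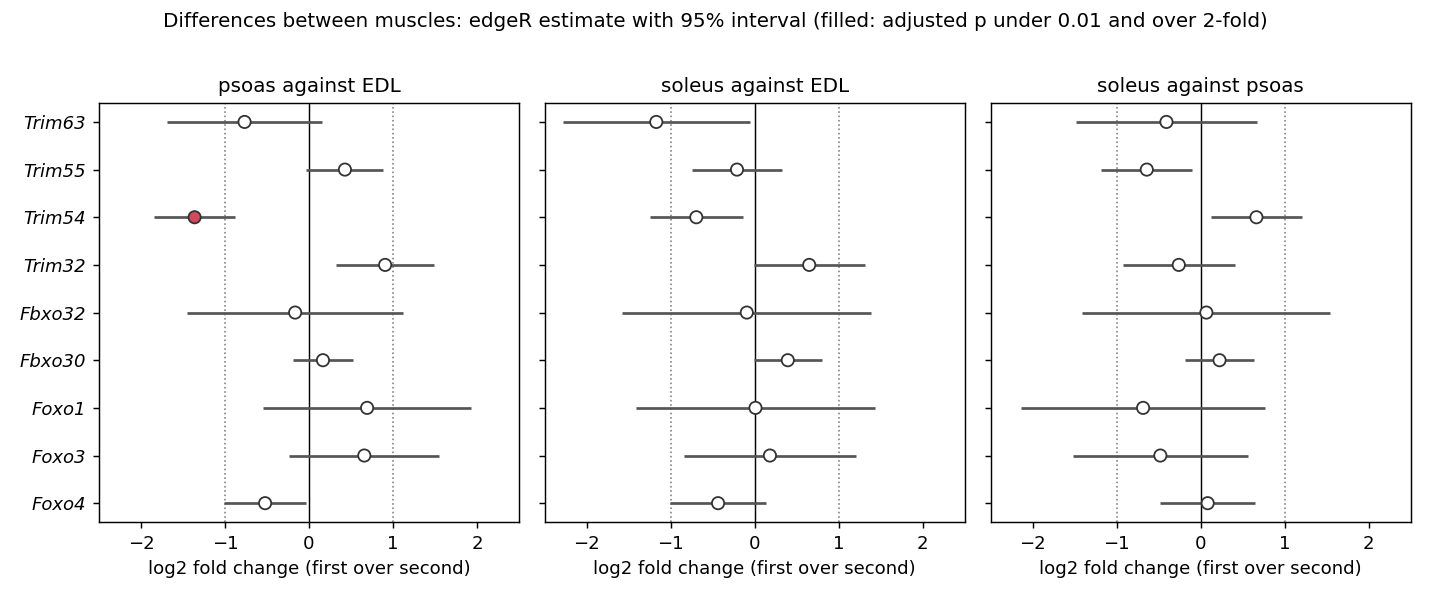
Log2 fold change of each gene between the muscles (x axis, first muscle over second) with its 95% interval from edgeR, one panel per comparison. Dotted lines mark a 2-fold change and a filled point passes both limits. The only filled point is Trim54 for psoas against EDL at -1.36, and the widest intervals belong to Fbxo32 and Foxo1.

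Trim63 (ENSMUSG00000028834, chr4:134315120-134329629), which ubiquitinates thick filament proteins, did not pass in any comparison. It had normalized counts of 2602, 13541, 4505, 2619 and 4975 in EDL (5648 ± 4542, SD, n = 5), 2535, 3539, 4738, 2792 and 3139 in psoas (3349 ± 863, SD, n = 5) and 2354, 3830 and 1345 in soleus (2510 ± 1250, SD, n = 3). The muscles overlapped, and EDL replicate 2 stood far above all other libraries. The log2 fold change was -0.77 ± 0.43 for psoas against EDL (adjusted p = 0.233), -1.17 ± 0.52 for soleus against EDL (adjusted p = 0.296) and -0.41 ± 0.50 for soleus against psoas (adjusted p = 0.753, all edgeR). Without EDL replicate 2 the first of these was -0.13 and the second -0.54. Within codes, soleus minus EDL was -2.19 in T4, where EDL replicate 2 is the only EDL library, and -1.41 in T6 on the log2 scale. An edgeR fit blocked on the code gave an adjusted p of 0.0402, above the limit of 0.01.

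Trim55 (chr3:19644474-19692421), whose protein MuRF2 binds titin and microtubules, was the least abundant of the MuRF genes. Its normalized counts ran from 305 to 422 in EDL, from 343 to 690 in psoas and from 252 to 401 in soleus, and the groups overlapped. Psoas against EDL gave a log2 fold change of 0.43 ± 0.21 (adjusted p = 0.177) and soleus against psoas -0.64 ± 0.25 (adjusted p = 0.315, both edgeR). Soleus against EDL gave -0.21 ± 0.25 (adjusted p = 0.766 in edgeR), with a 95% interval from -0.74 to 0.32.

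Levels of different genes were compared per kilobase of exon, after summing the 3 MuRF genes in each library. Trim63 made up 56.5% ± 12.9 of the sum in EDL, 65.8% ± 6.24 in psoas and 50.5% ± 12.9 in soleus (SD, n = 5, 5 and 3). Trim54 made up 38.5% ± 10.97, 23.8% ± 3.57 and 42.5% ± 12.2, and Trim55 5.05% ± 2.19, 10.4% ± 2.86 and 7.00% ± 0.97. The mean share of Trim54 was lowest in psoas, but its share of 19.8% in EDL replicate 2, the library with the highest Trim63, lay inside the psoas range of 19.2% to 28.9%. In 2 of the 13 libraries Trim54 exceeded Trim63, with 55.4% against 36.6% in soleus replicate 3 and 47.8% against 44.5% in EDL replicate 1.

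**Figure D3:**
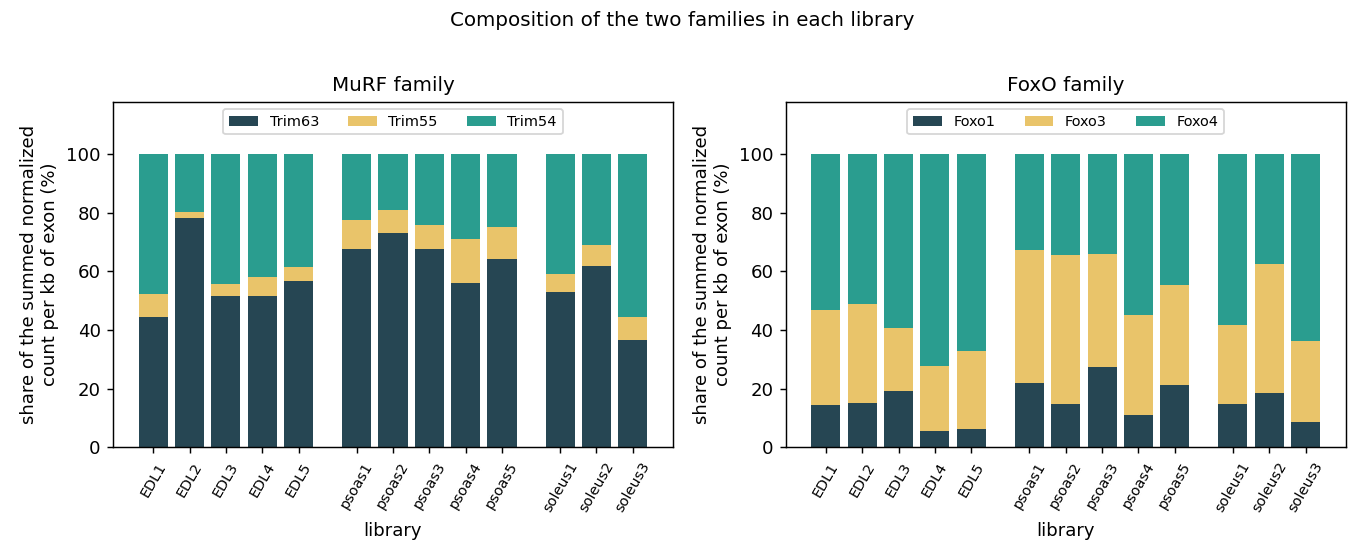
Share of each gene (y axis, percent) in the summed normalized count per kilobase of exon of the MuRF genes, left, and the FoxO genes, right, one bar per mdm library. Trim54 takes 19.2% to 28.9% of the MuRF sum in psoas, and Foxo4 takes the largest share of the FoxO sum in EDL.

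Trim32 (chr4:65604986-65616238, inside the span of Astn2), a ligase for actin, desmin and dysbindin that is mutated in a human limb-girdle muscular dystrophy, was the least abundant member. Its normalized counts were 35.8, 72.7, 55.7, 90.4 and 86.6 in EDL and 99.2, 136, 119, 135 and 149 in psoas, with every psoas library above every EDL library. Soleus had 99.7, 146 and 70.5 and overlapped both. Psoas against EDL gave a log2 fold change of 0.91 ± 0.27 (adjusted p = 0.0336 in edgeR's test), under the 2-fold limit. At the looser limit of an adjusted p under 0.05, which 18.1% of all genes met, it was the only member beside Trim54, and 0 members met it for soleus against EDL (3.43% of all genes) or soleus against psoas (0.633%). Leaving out 1 library gave adjusted p from 0.0287 to 0.0797. Because the groups did not overlap, the difference had to be positive in every numbered pair and within every shared code, so these signs add no support. Within T4, T5 and T6 it was 0.85, 1.07 and 0.69 on the log2 scale. With the replicate number as a block in edgeR, where number 1 joins mice of different age, the adjusted p was 0.00929 at a log2 fold change of 0.97. The lowest raw count behind these values was 28, which alone carries a counting error of 18.9%.

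Fbxo32 (chr15:58175879-58214932, reverse strand), the F-box subunit that brings MyoD and the translation factor eIF3f to a cullin ligase, varied more within a muscle than between muscles. Its normalized counts were 1251, 8802, 2954, 1388 and 1040 in EDL, 3288, 3560, 3992, 1583 and 1502 in psoas and 2128, 5582 and 982 in soleus. The 3 muscles overlapped, with EDL replicate 2 the highest library and soleus replicate 3 the lowest. Muscle accounted for 1.33% of its variance, and the SD within muscles, 1.08 on the log2 CPM scale, was above that of 92.9% of the genes tested. The log2 fold change was -0.16 ± 0.60 for psoas against EDL, -0.09 ± 0.69 for soleus against EDL and 0.07 ± 0.69 for soleus against psoas (adjusted p = 0.875, 0.973 and 0.976 in edgeR). The signs were not stable, since the first turned to 0.75 without EDL replicate 2, the second to 0.82 without the same library and the third to -0.84 without soleus replicate 2.

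Fbxo30 (chr10:11281330-11298052), a ligase whose RNA rises in muscle when BMP signaling falls, was the steadiest member. It had normalized counts from 1101 to 1589 in EDL, from 1439 to 1998 in psoas and 1910, 2106 and 1594 in soleus, so that the lowest soleus library, at 1594, only just exceeded the highest EDL library, at 1589. The SD within muscles was 0.20 on the log2 CPM scale, above that of 4.14% of the genes tested. Soleus against EDL gave a log2 fold change of 0.39 ± 0.19 (adjusted p = 0.348 in edgeR), with a 95% interval from -0.01 to 0.80. The other comparisons gave 0.17 ± 0.17 for psoas against EDL and 0.23 ± 0.19 for soleus against psoas (adjusted p = 0.518 and 0.626 in edgeR).

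Of the FoxO genes, Foxo1 (chr3:52268336-52353221) had the widest range, with normalized counts of 285, 711, 739, 111 and 135 in EDL, 716, 488, 1259, 238 and 520 in psoas and 332, 712 and 144 in soleus. Foxo3 (chr10:42181841-42276755, reverse strand) had 556, 1407, 731, 383 and 513 in EDL, 1300, 1482, 1544, 645 and 736 in psoas and 526, 1498 and 413 in soleus. In both genes the 3 muscles overlapped, and replicates 4 and 5 of EDL, replicate 4 of psoas and replicate 3 of soleus, all of code T6, were the lowest of their muscle. Psoas against EDL gave log2 fold changes of 0.69 ± 0.58 for Foxo1 and 0.66 ± 0.42 for Foxo3 (adjusted p = 0.436 and 0.289 in edgeR). Foxo3 was higher in psoas in 5 of 5 numbered pairs, of which number 1 joins mice of different age. With the replicate number as a block its log2 fold change was 0.74 (adjusted p = 0.0236 in edgeR). This raised the members under an adjusted p of 0.05 from 2 to 3, in a fit that treats number 1 as a pair. The 95% interval of soleus against EDL ran from -1.42 to 1.43 for Foxo1 and from -0.84 to 1.20 for Foxo3, and that of soleus against psoas from -2.14 to 0.77 and from -1.52 to 0.56.

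Foxo4 (chrX:101254528-101260873) had normalized counts of 422, 978, 922, 580 and 591 in EDL, 430, 458, 632, 480 and 441 in psoas and 526, 584 and 435 in soleus. EDL replicates 2 and 3 lay above all other libraries, and EDL replicate 1 lay below them all. The log2 fold change was -0.52 ± 0.23 for psoas against EDL (adjusted p = 0.127), -0.44 ± 0.27 for soleus against EDL (adjusted p = 0.494) and 0.09 ± 0.26 for soleus against psoas (adjusted p = 0.913, all edgeR). Blocking the edgeR fit on the code gave the first an adjusted p of 0.0207, and the differences within T4, T5 and T6 were -1.12, -0.55 and -0.34. Set against the 8 fiber genes it was 0.21 higher in psoas instead (exact permutation test, two-sided, p = 0.214).

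Per kilobase of exon, Foxo4 was the largest part of the FoxO sum in EDL, with 60.6% ± 9.03, and in soleus, with 53.2% ± 13.9. In psoas Foxo3, with 40.6% ± 7.43, and Foxo4, with 40.2% ± 9.57, were about level, and their spread overlapped. Foxo1 held 12.1% ± 5.93 in EDL, 19.2% ± 6.45 in psoas and 13.9% ± 4.99 in soleus (SD, n = 5, 5 and 3).

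The variation within muscles ran through several members at the same time. In EDL replicate 2, Trim63, Fbxo32, Foxo1, Foxo3 and Foxo4 exceeded the EDL mean by 1.58, 2.05, 1.29, 1.15 and 0.58 on the log2 CPM scale, and in soleus replicate 2 they exceeded the soleus mean by 0.75, 1.31, 1.14, 1.13 and 0.20. Psoas replicate 3 was above its mean in the same 5 genes, by 0.39 to 1.18. In 4 of the 5 libraries of code T6 all 5 genes were below the muscle mean, and in the other, EDL replicate 5, Trim63 alone was above it, by 0.11. Trim32 and Fbxo30 shared this order in soleus but did not follow it throughout EDL and psoas. Both were highest in soleus replicate 2 (0.54 and 0.19) and lowest in soleus replicate 3 (-0.51 and -0.23), and both were 0.19 above the mean in EDL replicate 2. Other libraries went the other way. Within code T6, Trim32 was above the muscle mean in EDL replicates 4 and 5 (0.45 and 0.41) and in psoas replicates 4 and 5 (0.10 and 0.23). Fbxo30 was above it in EDL replicate 5 (0.12) and psoas replicate 4 (0.33). In psoas replicate 3 both genes were below the mean (-0.08 and -0.14).

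**Figure D4:**
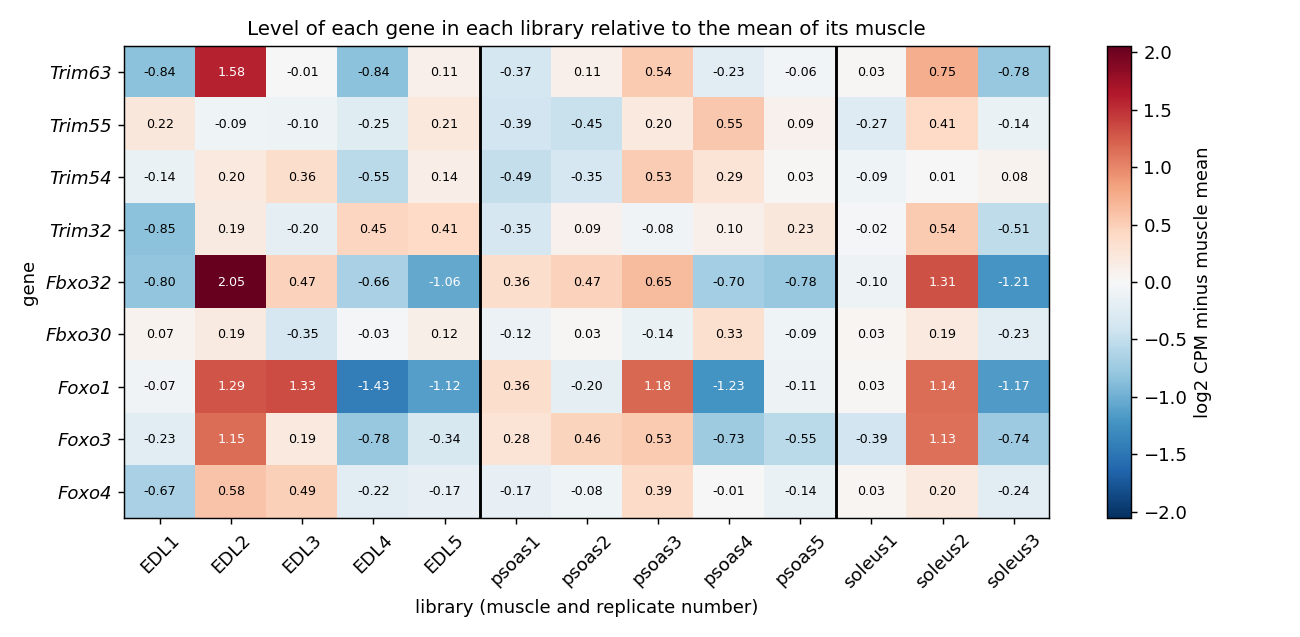
Level of each gene (rows) in each mdm library (columns), as log2 CPM minus the mean of the muscle, with the value in each cell; red is above and blue below the mean. EDL2, psoas3 and soleus2 are red in Trim63, Fbxo32 and all 3 FoxO genes, with the highest value, 2.05, for Fbxo32 in EDL2.

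Among the 36 pairs of members, 5 were correlated over the 13 libraries at an adjusted p under 0.05 (permutation of log2 CPM, 100000 resamples, two-sided). Fbxo32 and Foxo3 had a Pearson r of 0.878 (permutation p = 0.00013, adjusted p = 0.00432) and a Spearman rho of 0.885 (permutation p = 0.0001). The r was 0.874 without the 2 libraries farthest from the median of Fbxo32, 0.936 with the muscle means removed and 0.717 with the code means removed. Foxo1 and Foxo3 had r = 0.868 (permutation p = 0.00024, adjusted p = 0.00432) and rho = 0.868 (permutation p = 0.00032), and Fbxo32 and Foxo1 had r = 0.808 (permutation p = 0.00084, adjusted p = 0.00756) and rho = 0.813 (permutation p = 0.00112). Both pairs kept an r of at least 0.617 under these changes. Libraries of EDL and psoas with the same number may share an animal, except number 1, whose ages differ, so the 13 points may not all be independent.

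The relation of the 2 classic atrophy markers depended on few libraries. Trim63 and Fbxo32 had r = 0.693 (permutation p = 0.00655, adjusted p = 0.0472) and rho = 0.495 (permutation p = 0.0906), and without the 2 libraries farthest from the median of Trim63 r was 0.283, so the pooled relation rested on those libraries. With the muscle means removed r was 0.836, and with the code means removed 0.722. Trim63 and Foxo4 had r = 0.797 (permutation p = 0.00062, adjusted p = 0.00744) and rho = 0.780 (permutation p = 0.00269), with r = 0.655 without the 2 libraries. Trim54 and Trim32, whose levels separate EDL from psoas in opposite directions, had r = -0.0019 once the muscle means were removed.

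A property of whole libraries moved with several members. Each library was given the median deviation of the 4248 genes with the longest exons (at least 6272 bases) minus that of the 4247 with the shortest (at most 2169 bases), a measure chosen after the data were seen. It ran from -0.60 in EDL replicate 5 to 0.46 in psoas replicate 1, with psoas replicate 3 at 0.34, soleus replicate 2 at 0.34, EDL replicate 2 at 0.10 and soleus replicate 3 at -0.41. Its correlation with Foxo3 was r = 0.865 (rho = 0.846, permutation p = 0.00027, adjusted p = 0.00243 over 9 members), with Foxo1 r = 0.796 (rho = 0.676, permutation p = 0.00146, adjusted p = 0.00657) and with Fbxo32 r = 0.725 (rho = 0.813, permutation p = 0.0058, adjusted p = 0.0174). Without the 2 libraries farthest from its median these were 0.895, 0.745 and 0.701, with the muscle means removed 0.867, 0.796 and 0.879, and with the code means removed 0.735, 0.730 and 0.419. The exons of Foxo3, Foxo1 and Fbxo32 span 7571, 8665 and 6976 bases, which puts these 3 members and no other in the long class. Since the measure is built from both classes, long genes tend to rise with it and short genes to fall. The r of other genes in these classes is not given here, so the p-values show nothing particular to these members. No other member passed. Trim54, in the short class, came nearest and in the opposite direction, with r = -0.616 (rho = -0.615, permutation p = 0.0259, adjusted p = 0.0583), and r was -0.406 without the 2 libraries. With the code means removed Trim32, Trim55 and Trim54 had r = 0.876, 0.811 and -0.769, larger in size than those of the long class, but with the muscle means removed their r lay between -0.0667 and -0.0118. Trim63 had r = 0.187, and 0.581 with the muscle means removed (permutation p = 0.0352, adjusted p = 0.0793).

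With a straight-line relation to this measure removed from every member, Fbxo32 and Foxo3 still had r = 0.725 (adjusted p = 0.0177 in the permutation test), while Foxo1 had r = 0.589 with Foxo3 (adjusted p = 0.092) and 0.555 with Fbxo32 (adjusted p = 0.122), no longer past the limit. Trim63 and Fbxo32 had r = 0.824 on this scale (adjusted p = 0.0103), and Fbxo32 and Foxo4 r = 0.927 (adjusted p = 0.00036). The last pair had not passed before this removal, at r = 0.586 (permutation p = 0.0338, adjusted p = 0.15), and had r = 0.316 without the 2 libraries farthest from the median of Fbxo32. The part of RNA quality in these relations was not tested.

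**Figure D5:**
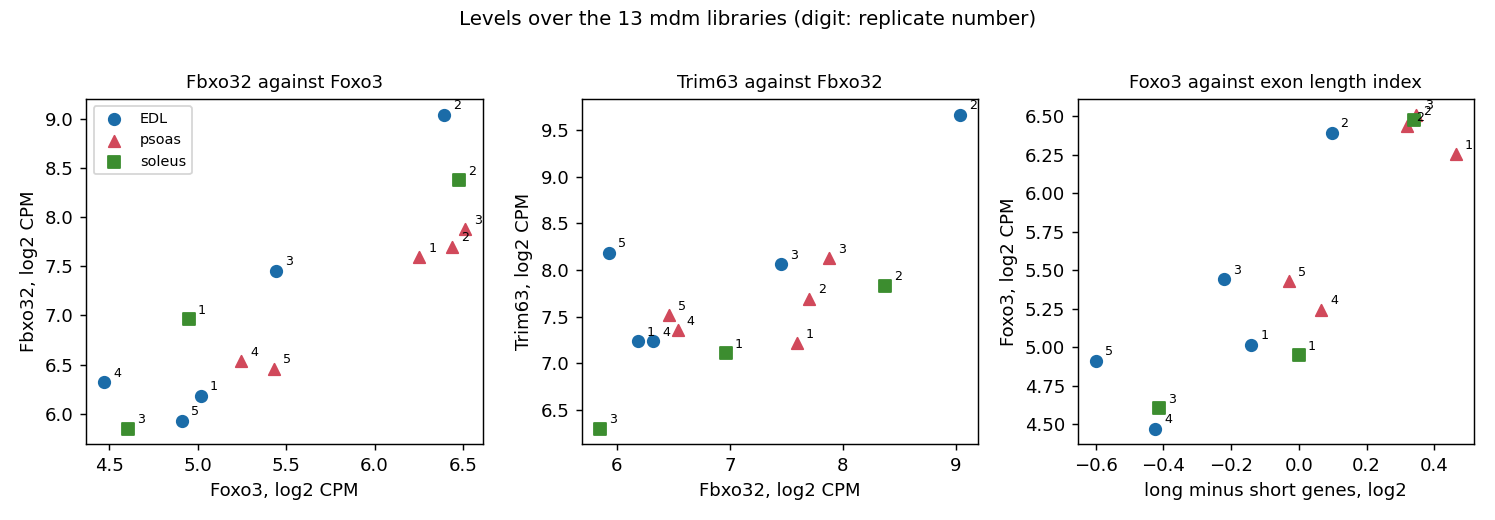
Log2 CPM of Fbxo32 against Foxo3 (left), of Trim63 against Fbxo32 (middle) and of Foxo3 against the long-minus-short exon measure of the library (right), one point per mdm library, with color and shape for the muscle. The left and right clouds rise steadily (r = 0.878 and 0.865), while in the middle EDL replicate 2 stands alone at the upper right (r = 0.693).

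Other genes of the pathway were counted in 8 lists with 108 genes tested in all. Between psoas and EDL 13 of them passed, 5 higher and 8 lower in psoas, or 12% beside the 4.93% of all genes. This count depended on single libraries: it was 1 without EDL replicate 3, 3 without psoas replicate 2, 4 without psoas replicate 3, 5 without EDL replicate 5 or psoas replicate 1, 7 without psoas replicate 4 or soleus replicate 1 and 8 without EDL replicate 2. The count over all genes fell in these fits too. It went from 841 to 317, 365 and 599 without the first 3 of these libraries. Without EDL replicate 5 it was 426, without psoas replicate 1 447, without psoas replicate 4 602, without soleus replicate 1 599 and without EDL replicate 2 687. For soleus against EDL 2 of the list genes passed, both lower (1.85%, beside 0.978% of all genes), and for soleus against psoas 0 of them passed in edgeR's test, where 2 had an adjusted p under 0.05 and DESeq2 gave 4.

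Of 16 other ligases known from muscle, 3 fell in psoas and 0 rose. Fbxo40, which targets IRS1 for degradation, had 1472 ± 685 normalized counts in psoas and 5498 ± 1894 in EDL (SD, n = 5), a log2 fold change of -1.91 ± 0.36 (adjusted p = 0.00412 in edgeR). Asb2, a ligase subunit that limits muscle mass, had a log2 fold change of -1.14 (adjusted p = 0.00918) and Wwp1 of -1.54 (adjusted p = 0.00958). Fbxo40 passed in 11 of 13 fits without 1 library, Asb2 and Wwp1 in 3 each, and none of the 3 with the replicate number as a block. Of 16 enzymes that make, carry or dock ubiquitin, only Ube2b, an E2 enzyme induced in several kinds of atrophy, passed, with a log2 fold change of -1.02 (adjusted p = 0.00731), in 4 of 13 fits without 1 library, and the median of the list was -0.54.

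Upstream of FoxO, 0 of 14 genes of the insulin, IGF1 and Akt route passed for psoas against EDL. The lowest p belonged to Akt1, with a log2 fold change of 0.90 ± 0.24 (adjusted p = 0.0193 in edgeR), and 2 of the 14 had an adjusted p under 0.05. None of 10 FoxO coregulators passed (3 had an adjusted p under 0.05), with Crebbp, an acetyltransferase, at 0.97 ± 0.29 (adjusted p = 0.0323). Of 9 genes of the glucocorticoid receptor and its targets 0 passed, and 0 had an adjusted p under 0.05. Nr3c1, the receptor itself, was at -0.32 ± 0.17 (adjusted p = 0.214).

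Of 17 genes listed as FoxO targets, 1 passed, Cdkn1a, an inhibitor of the cell cycle that many other factors also induce. It was 584 ± 192 in psoas and 209 ± 76.3 in EDL (SD, n = 5), a log2 fold change of 1.47 ± 0.28 (adjusted p = 0.00429 in edgeR), and it passed in 10 of 13 fits without 1 library. In soleus it had 192 ± 65.5 normalized counts (SD, n = 3). Catalase, Cat, was the target with the lowest p for soleus against EDL, at a log2 fold change of 1.82 ± 0.40 (adjusted p = 0.0216), beside 2 of 5 adipocyte genes that rose in soleus, whose part in it was not tested.

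Of 11 genes that respond to denervation, 3 rose in psoas and 0 fell, and the median of the list was 0.95. The delta and gamma subunits of the acetylcholine receptor, Chrnd and Chrng, rose by 1.25 ± 0.25 and 1.32 ± 0.30, and the factor Runx1 by 1.39 ± 0.30 on the log2 scale (adjusted p = 0.00585, 0.00943 and 0.00819 in edgeR). These calls were lost without most of the libraries, with 5 of 13 such fits calling Chrnd, 3 Chrng and 3 Runx1. Mymk, the fusion gene of new fibers, also rose in psoas, by 1.61 ± 0.34 (adjusted p = 0.00758), and was called in 5 of 13 such fits. The Schwann cell sum given above was higher in psoas as well, and its part was not tested.

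Of 15 substrates and partners of the ligases, 1 rose and 4 fell in psoas. Myod1, a substrate of Fbxo32, rose by 1.58 ± 0.23 (adjusted p = 0.00137 in edgeR) from 137 ± 42.5 to 408 ± 105 normalized counts (SD, n = 5), and it was called in 13 of 13 fits without 1 library. Ckm, muscle creatine kinase, and Mybpc2, fast myosin binding protein C, both listed as MuRF1 substrates, fell, with log2 fold changes of -1.67 ± 0.30 and -3.01 ± 0.58 (adjusted p = 0.00356 and 0.00468), and the other genes that fell, Mylpf and Tnni2, are fast fiber genes. For soleus against EDL, Tnni2 and Mybpc2 fell, with log2 fold changes of -3.32 ± 0.45 and -5.30 ± 0.82 (adjusted p = 0.00175 and 0.00425), with the fast fiber sum at most 123511 in soleus and at least 965568 in EDL, and neither was called without soleus replicate 1 or 2.

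The genes most like each member were sought by Pearson r of log2 CPM over the 13 libraries among 9984 genes with a mean normalized count of at least 100, and these values are descriptions. Trim54 had the closest partners, Cdnf (0.981), Ndrg2 (0.979) and Cox6a2, a muscle subunit of cytochrome c oxidase (0.977). Trim63 was nearest to Ucp3, a mitochondrial uncoupling protein (0.910), Flcn (0.906) and Klhl21 (0.900). Fbxo32 was nearest to Ttbk2, Chd7 and Sympk (0.922 to 0.926), Foxo1 to Nrip1 (0.942), Insr, the insulin receptor (0.929), and Kdm7a (0.926), Foxo3 to Aff1 (0.961), Bmp2k and Spsb1, and Foxo4 to Zdhhc3 (0.958), Stat5b and Cops7a. Trim32 was nearest to Ireb2 (0.937), Trim55 to Urb2 (0.888) and Fbxo30 to Txlna (0.877).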

How the data were processed

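RNA of 13 libraries was sequenced on a NextSeq 500 in paired 75-base reads. The authors aligned the reads to GRCm38.p4 with TopHat2 (version 2.1.1), after trimming some libraries with Trimmomatic (version 0.32), and deposited whole-number counts of reads per gene. The authors also deposited a normalized signal, the count divided by a DESeq2 size factor, which was checked to within 5.2e-15 of 1 factor per library. How the counting treated strand and overlapping genes is not given in the sources used here, so reads of Trim54 and of the antisense gene Gm15469 (at most 2.74% of its count), and of Fbxo32 and Gm15943 (at most 2.79%), may be mixed. Columns of gene comparisons were not used, and 0 entries named no gene. GENCODE mouse release 21 gave symbols for 17833 of 17924 genes. RefSeq tables gave promoters.

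Groups come from the labels. The genes that reached 10 normalized counts in 3 or more libraries were fitted with edgeR 4.0.16 (R 4.3.3, TMM factors, quasi-likelihood test, muscle as the only factor, all 13 libraries), with Benjamini-Hochberg adjustment. Alternatives were DESeq2 1.42.0, limma 3.58.1 on log2(normalized value + 1), other size factors and filters, blocks for label code or replicate number, and each library left out. Log2 CPM used a prior count of 2. Counts of 17069 genes were simulated for soleus against EDL. Every gene had the same dispersion, and 200 genes were changed by a log2 fold of 3. From these counts edgeR recovered 100% with 0 false calls. This checked that the code finds large changes. It did not measure power or false calls for smaller changes or for genes as variable as Fbxo32. Exact permutation tests and correlations used scipy 1.17.1.

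After removal of the muscle means, same-numbered EDL and psoas libraries correlated by 0.289 to 0.407, all above 0.1, so the numbers were taken as pairs. The best value of each EDL library with a psoas library of another number was 0.102 to 0.237. These exceeded 0.1 too, so that limit cannot tell pairs from other combinations. Replicate number 1 joins mice of different age and still had the highest value, 0.407, so this correlation does not show that a pair shares an animal. Soleus numbers did not pair (-0.135 to 0.313). The labels do not say that libraries of a muscle come from separate mice, so p-values measure the spread between these libraries. None of 23 pairs of replicates was alike to within counting noise (lowest chi-square per degree of freedom 53.1). Reads carry no molecular identifiers, so counting errors cover counting only. Named genes were the 9 members, up to 3 genes past the limits with the lowest adjusted p per list and comparison, otherwise the gene with the lowest p, and the 3 genes most like each member. Mylpf was named after its value was seen, and markers came from lists of cell types. The members and lists were chosen with earlier results of these data known. Of 187 list entries, 185 were measured (Prmt1 and Chrdl2 are not analysed here).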

Additional observations from a re-analysis of the deposited data

Results flagged for a closer look

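In 18 groups of 5 libraries (9 members in EDL and in psoas), Dixon's test of the highest and lowest library flagged 3 values, all at the high end. The test was run on normalized counts and not on a log scale. Chance flags about 1 group in 20 where values are spread normally, which was not checked for these counts. Trim63 in EDL replicate 2, at 13541 normalized counts, stood apart from the other EDL libraries (at most 4975), with a Dixon ratio of 0.783. Fbxo32 in the same library, at 8802, stood apart from the others (at most 2954), with a ratio of 0.753. Foxo4 in psoas replicate 3, at 632, stood apart from the other psoas libraries (at most 480), with a ratio of 0.753. EDL replicate 2 is labelled as a male of 38 days with code T4 and held 33932248 counted reads.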

How the results depend on the processing

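The counts of members past both limits, 1, 0 and 0, were the same in the 9 other fits and without each of the 13 libraries. Of the 27 log2 fold changes of members, 17 kept their sign in every setting tried and 10 turned in at least 1, none of them past the limits in any setting. Relative to 8 fiber genes, a scaling added after the data were seen, Trim54 for psoas against EDL was -0.71 (adjusted p = 0.0714 in the exact permutation test). With so few libraries that test could not give an adjusted p under 0.01, so it could not decide whether the call held. Sign turns on this scale gave, for psoas against EDL, Trim63 0.17, Fbxo32 0.92 and Foxo4 0.21. For soleus against EDL they gave Trim55 0.39, Fbxo32 0.70 and Foxo4 0.25, and for soleus against psoas Fbxo32 -0.22. With limma, Fbxo32 was 0.25, 0.071 and -0.18 in the 3 comparisons. With the replicate block, Fbxo32 was 0.27 for psoas against EDL and -0.71 for soleus against psoas, Foxo4 was -0.0050 for the latter, and soleus against EDL gave -0.63 for Foxo1 and -0.27 for Foxo3. The replicate block kept only numbers present in both muscles, so its soleus fits left out replicates 4 and 5 of EDL and psoas. Soleus numbers did not pair, so that block does not match animals in these fits. With the label code as a block, Fbxo32 was -0.57 for soleus against psoas, and for soleus against EDL Foxo1 was -0.026 and Foxo3 -0.19. Foxo1 for soleus against EDL was -0.024 with DESeq2 and -0.017 with relative log expression factors. The cause of these turns was not tested.

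Leaving out 1 library gave Fbxo32 from -0.39 to 0.75 for psoas against EDL, from -0.99 to 0.82 for soleus against EDL and from -0.84 to 0.47 for soleus against psoas, Foxo1 from -0.71 to 0.40 and Foxo3 from -0.61 to 0.59 for soleus against EDL, and Foxo4 from -0.021 to 0.19 for soleus against psoas. Genes of the pathway lists past both limits then ranged from 1 to 12, 0 to 4 and 0 to 1 in the 3 comparisons. DESeq2 gave 7 and 4 of them for the soleus comparisons with EDL and psoas, and limma 1 for the latter. Correlated pairs of members, 5 in the main test, were 9 with the muscle means removed, 9 with the code means removed, 3 without 2 libraries and 10 with the exon length measure removed.

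Over all genes, 841, 167 and 13 passed in the 3 comparisons, and with DESeq2 1586, 633 and 171. The replicate block gave 1267 for psoas against EDL and 1 for soleus against psoas, the latter from fewer libraries and from numbers that did not pair. In the fit of only the 2 muscles 557 passed for psoas against EDL and 8 for soleus against psoas, with the code as a block 86 for soleus against EDL and 6 for soleus against psoas, and with limma 20 for the latter. Leaving out 1 library gave 317 to 802, 19 to 182 and 3 to 21. The replicate block changed no other call of a member than those given. With 3 soleus libraries, 1 of which has the lowest depth, intervals of soleus contrasts are the widest, and Trim32, with 28 to 254 reads per library, has the fewest reads of the members. Codes T3 and T5 each hold 1 age (29 and 42 days), and code cannot be told apart from age there, while T4 spans 33 to 38 days and 38 days occurs under T1, T4 and T6. Where sex is given, it was male in T4 and female in T5, so it cannot be told apart from code. The labels do not give the sequencing run.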
